A study of Mus musculus with 2 samples.

Results

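The genes Bcl11b, Zbtb7b, Satb1, Tox, Myb and Gfi1 encode transcription factors of the T lineage, and their loci were described in the open chromatin of mouse T helper 2 (Th2) cells. They are 6 of 21851 protein-coding genes of the annotation. Around each gene the body plus 100 kb on each side was taken, and the open regions of both libraries in that window were joined where they overlapped by at least 1 bp, which gave 165 regions, 110 of them open in both libraries. The study measured ATAC-seq, in which a transposase cuts accessible DNA and adds sequencing adapters, in primary Th2 cells of the strain C57BL/6NJ. Its 2 libraries form 1 group, with no control, treatment or other cell type. The labels call them biological replicates 1 and 2 and tie both to the same donor record, and they state neither sex nor age. Whether separate animals were used is not said, and the differences between replicates may therefore be technical. Region names hold the words ASTARR and insert and a number of hours, which the sources used here do not explain. The libraries may therefore hold something other than plain ATAC-seq fragments. No test between groups exists.

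The 6 proteins act at several steps of T cell development. Bcl11b, a zinc-finger protein, commits thymic progenitors to the T lineage and keeps progenitor genes off. Zbtb7b, also called ThPOK, directs thymocytes to the CD4 helper lineage and represses genes of CD8 cells. Satb1 binds AT-rich DNA and organises chromatin loops in thymocytes, and Tox is an HMG-box protein needed for CD4 T cells to form. Myb acts in blood progenitors and thymocytes, and Gfi1 is a repressor that supports the growth of Th2 cells. Genes of this kind are often controlled by enhancers that lie far from the start site, within introns or in neighbouring genes. An open region shows that DNA was accessible there, and its count at the summit cannot tell fewer cells with an open site from less opening per cell.

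The sequences below are the 200 bp around the summits of the regions on which the results turn. The first 6 are, for each gene, the strongest shared region outside promoters whose nearest start site was the gene's and which did not touch a protein-coding exon. By mean fold enrichment over local background, many such regions of the genome were at least as strong. The shares were 4.56% for Gfi1, 8.15% for Tox, 8.68% for Myb, 19.0% for Satb1 and 21.5% for Bcl11b. The region shown for Zbtb7b, with 3.15 and 3.50 fold, lay below the median of 5.89 over all shared regions outside promoters. The other 3 are the region in intron 1 of Myb, which was stronger than the Myb promoter, and the strongest shared regions beyond the 100 kb flanks of Satb1 and Bcl11b. All are written 5′ to 3′ on the plus strand of GRCm38 (RefSeq), and all 6 genes lie on the minus strand. Capitals mark matches to the consensus sequences searched, on either strand.

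Bcl11b, 3′ of the gene, chr12:107815045-107815244: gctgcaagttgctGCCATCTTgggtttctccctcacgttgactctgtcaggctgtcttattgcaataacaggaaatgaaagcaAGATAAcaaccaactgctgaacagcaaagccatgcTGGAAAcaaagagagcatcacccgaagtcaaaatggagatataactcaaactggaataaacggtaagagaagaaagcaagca

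Zbtb7b, intron 1, chr3:89388937-89389136: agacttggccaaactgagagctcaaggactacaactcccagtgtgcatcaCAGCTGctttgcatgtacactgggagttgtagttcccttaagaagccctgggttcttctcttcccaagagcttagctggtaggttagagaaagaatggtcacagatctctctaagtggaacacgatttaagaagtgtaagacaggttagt

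Satb1, 5′ of the gene, chr17:51899729-51899928: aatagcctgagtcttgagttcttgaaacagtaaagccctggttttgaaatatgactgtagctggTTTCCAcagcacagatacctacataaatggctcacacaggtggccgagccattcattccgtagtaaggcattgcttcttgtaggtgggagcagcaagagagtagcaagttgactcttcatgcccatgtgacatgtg

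Tox, intron 1, chr4:6924893-6925092: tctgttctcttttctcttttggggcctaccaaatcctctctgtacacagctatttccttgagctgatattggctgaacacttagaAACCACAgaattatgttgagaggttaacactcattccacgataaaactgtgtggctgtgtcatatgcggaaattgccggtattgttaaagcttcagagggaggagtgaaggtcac

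Myb, 5′ of the gene, chr10:21172915-21173114: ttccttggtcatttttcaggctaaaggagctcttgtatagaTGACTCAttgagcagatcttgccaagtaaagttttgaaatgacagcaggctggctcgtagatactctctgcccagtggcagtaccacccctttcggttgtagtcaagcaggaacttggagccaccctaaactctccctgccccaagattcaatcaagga

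Gfi1, 3′ of the gene, chr5:107703472-107703671: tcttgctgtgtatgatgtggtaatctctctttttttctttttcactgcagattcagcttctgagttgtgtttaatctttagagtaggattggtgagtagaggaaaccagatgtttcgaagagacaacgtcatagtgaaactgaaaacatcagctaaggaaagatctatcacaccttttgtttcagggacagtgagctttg

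Myb, intron 1, chr10:21158739-21158938: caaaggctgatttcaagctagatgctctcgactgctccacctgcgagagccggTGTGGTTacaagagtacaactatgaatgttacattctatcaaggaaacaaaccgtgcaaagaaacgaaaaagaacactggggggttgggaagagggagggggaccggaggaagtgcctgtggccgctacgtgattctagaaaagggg

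Satb1, beyond the 5′ flank, chr17:52076870-52077069: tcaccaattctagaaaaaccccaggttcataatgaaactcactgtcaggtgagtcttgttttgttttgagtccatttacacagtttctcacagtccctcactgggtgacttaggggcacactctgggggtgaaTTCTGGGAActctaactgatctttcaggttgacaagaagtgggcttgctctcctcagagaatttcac

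Bcl11b, beyond the 3′ flank, chr12:107645488-107645687: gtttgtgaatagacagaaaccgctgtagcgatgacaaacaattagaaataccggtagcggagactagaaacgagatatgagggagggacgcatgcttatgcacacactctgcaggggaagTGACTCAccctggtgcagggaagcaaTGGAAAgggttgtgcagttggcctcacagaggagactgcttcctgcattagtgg

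The consensus sequences searched were CCGGAAG for ETS factors, TGTGGTT for RUNX factors, AGATAA for factors of the GATA family, CTTTGAT for TCF/LEF factors, TGANTCA for AP-1 proteins, TGGAAA for NFAT proteins and TTCNNNGAA for STAT proteins. The others were CAGCTG, an E-box, AACNGNC for MYB proteins, AAATCAC for GFI1 proteins, GGGCGG for KLF/SP factors, GCATGCGC for NRF1 sites, AAGATGGC for YY1 sites, GGNGGCAG for CTCF sites and GGGNNTTCC for NF-kB proteins. The Bcl11b sequence held a YY1, a GATA and an NFAT match, that of Satb1 an NFAT match and that of Tox a RUNX match. The Myb sequence 5′ of the gene held an AP-1 match and that in intron 1 a RUNX match. The Zbtb7b sequence held an E-box, and the Gfi1 sequence held none of the 15 consensus sequences. Beyond the flanks, the Satb1 sequence held a STAT match and that of Bcl11b an AP-1 and an NFAT match. A match is a stretch of letters and not a measured binding site.

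The lists held 51458 regions in replicate 1 and 60784 in replicate 2 on the main chromosomes. Each region carries the authors' fold enrichment, read here as the count at the summit over local background. Read depth is not stated. The summit count (pileup) was recovered from the fold enrichment and the p-value of each region, and its median was 31 in replicate 1 (25th to 75th percentile 18 to 64) and 37 in replicate 2 (21 to 78). Promoter regions of both replicates were present at 5 of 5 T cell marker genes and at 4 of 4 Th2 genes (Il4, Il5, Il13 and Gata3). They were present at 1 of 3 CD8 markers (Cd8b1), and at 0 of 4 B cell, 0 of 4 myeloid and 0 of 3 mast cell markers and not at the erythroid gene Gata1.

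All 6 genes had an open promoter, that is a region of both replicates centred within 1 kb of an annotated start site. Across the annotation 57.3% of protein-coding genes had one. Of the 18 annotated protein-coding start sites of the 6 genes, those at 89392069 in Zbtb7b and at 51815004 and 51810919 in Satb1 had no region covering them and none centred within 1 kb. The Bcl11b promoter region lay at chr12:108003607-108004481, centred 0.442 kb upstream of the 5′ end, and covered neither of the 2 start sites of the gene. Its fold enrichment was 7.16 in replicate 1 and 7.58 in replicate 2.

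Zbtb7b had regions at separate promoters, with 5.76 and 6.18 fold at the upstream one (chr3:89393461-89395080) and 3.49 and 3.32 fold at the one inside the gene (chr3:89386698-89387733). The upstream one was the stronger in both replicates, but it covered no protein-coding start site of the gene, the nearest lying 0.908 kb from its centre. Satb1 had 3 promoter regions, with 7.35 and 6.51 fold at the 5′ end (chr17:51831346-51834372), 5.78 and 6.47 fold at chr17:51826045-51827098, and 4.85 and 4.41 fold at chr17:51812475-51814675. The first was the strongest in both replicates, with little between it and the next in replicate 2. The Tox promoter (chr4:6990115-6991618) had 7.30 and 8.02 fold. The Gfi1 promoter region (chr5:107723749-107727166) spanned both start sites of the gene, with 5.63 and 7.17 fold. The Myb promoter (chr10:21160808-21161578) had 3.04 and 3.31 fold, below the strongest promoter of every other gene of the set in both replicates. That place holds for the 1 kb definition: a stronger region in intron 1 of Myb was centred 2.03 kb from a start site.

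These promoters stood low by fold enrichment and, for most genes, higher by summit count. By mean fold, 73.1% (Tox) to 98.9% (Myb) of the 12514 open promoters of the annotation were at least as strong, and the median open promoter had 10.3 fold. When the summit count was set over the genome-wide background in place of the local one, the shares were 14.1% for Gfi1, 23.8% for Zbtb7b, 29.5% for Bcl11b, 32.8% for Satb1, 63.8% for Tox and 68.6% for Myb. The order of the genes thus depended on the background used: Tox had the highest promoter by mean fold and the lowest but one by summit count. The local background at the shared regions of the 6 windows had a median of 7.73 and 9.45 counts, against 5.03 and 6.26 counts over all shared regions. At the Gfi1 promoter it was 25.7 and 30.5 counts under summits of 149 and 225 counts. What sets the local background was not tested.

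**Figure D1:**
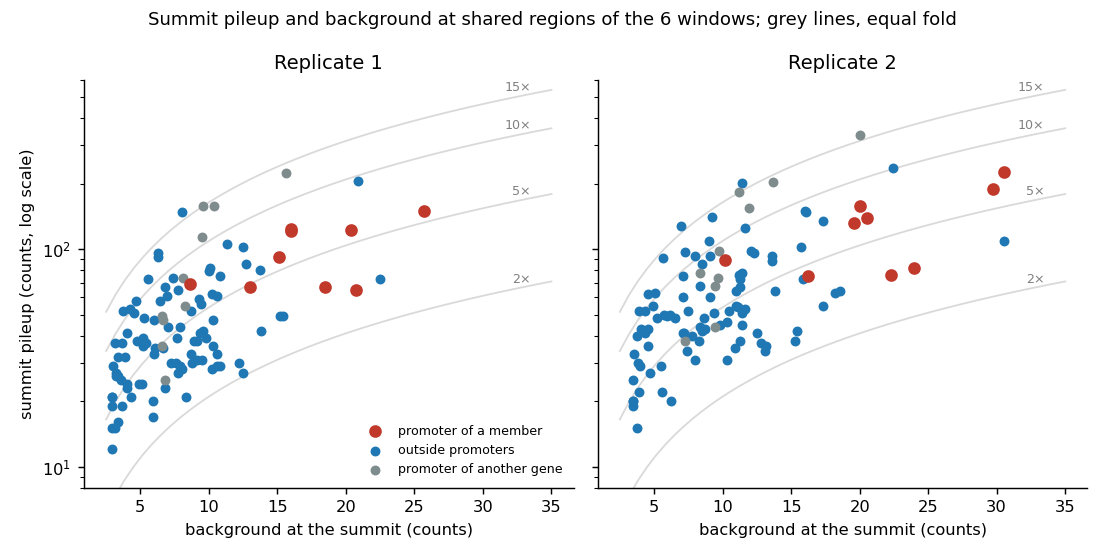
Summit count (vertical axis, log scale) against local background at the summit (horizontal axis), both in counts, for the 110 shared regions of the 6 windows in replicate 1 (left) and replicate 2 (right); grey lines join points of equal fold enrichment. The promoters of the 6 genes (red) lie at 65 to 149 counts in replicate 1 and mostly at higher background than the regions outside promoters (blue).

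In each of the 6 windows at least 1 shared region outside promoters had a higher mean fold than the gene's own promoter. That held for 48.7% of all genes with an open promoter. By summit count over the genome-wide background it held for 1 of the 6 genes, Myb, and for 42.1% of all genes with an open promoter. There were 2 such regions by fold at Bcl11b, 3 each at Zbtb7b, Satb1 and Tox, 7 at Gfi1 and 17 at Myb. By summit count there were 8 at Myb and 0 at the other genes. The 6 windows held from 9 (Zbtb7b) to 20 (Gfi1) shared regions outside promoters. The median window of all protein-coding genes held 8 shared regions of any kind, and the shares were not matched for this number. The Myb values rest on the 1 kb definition, since its stronger region in intron 1 was centred 2.03 kb from a start site.

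**Figure D2:**
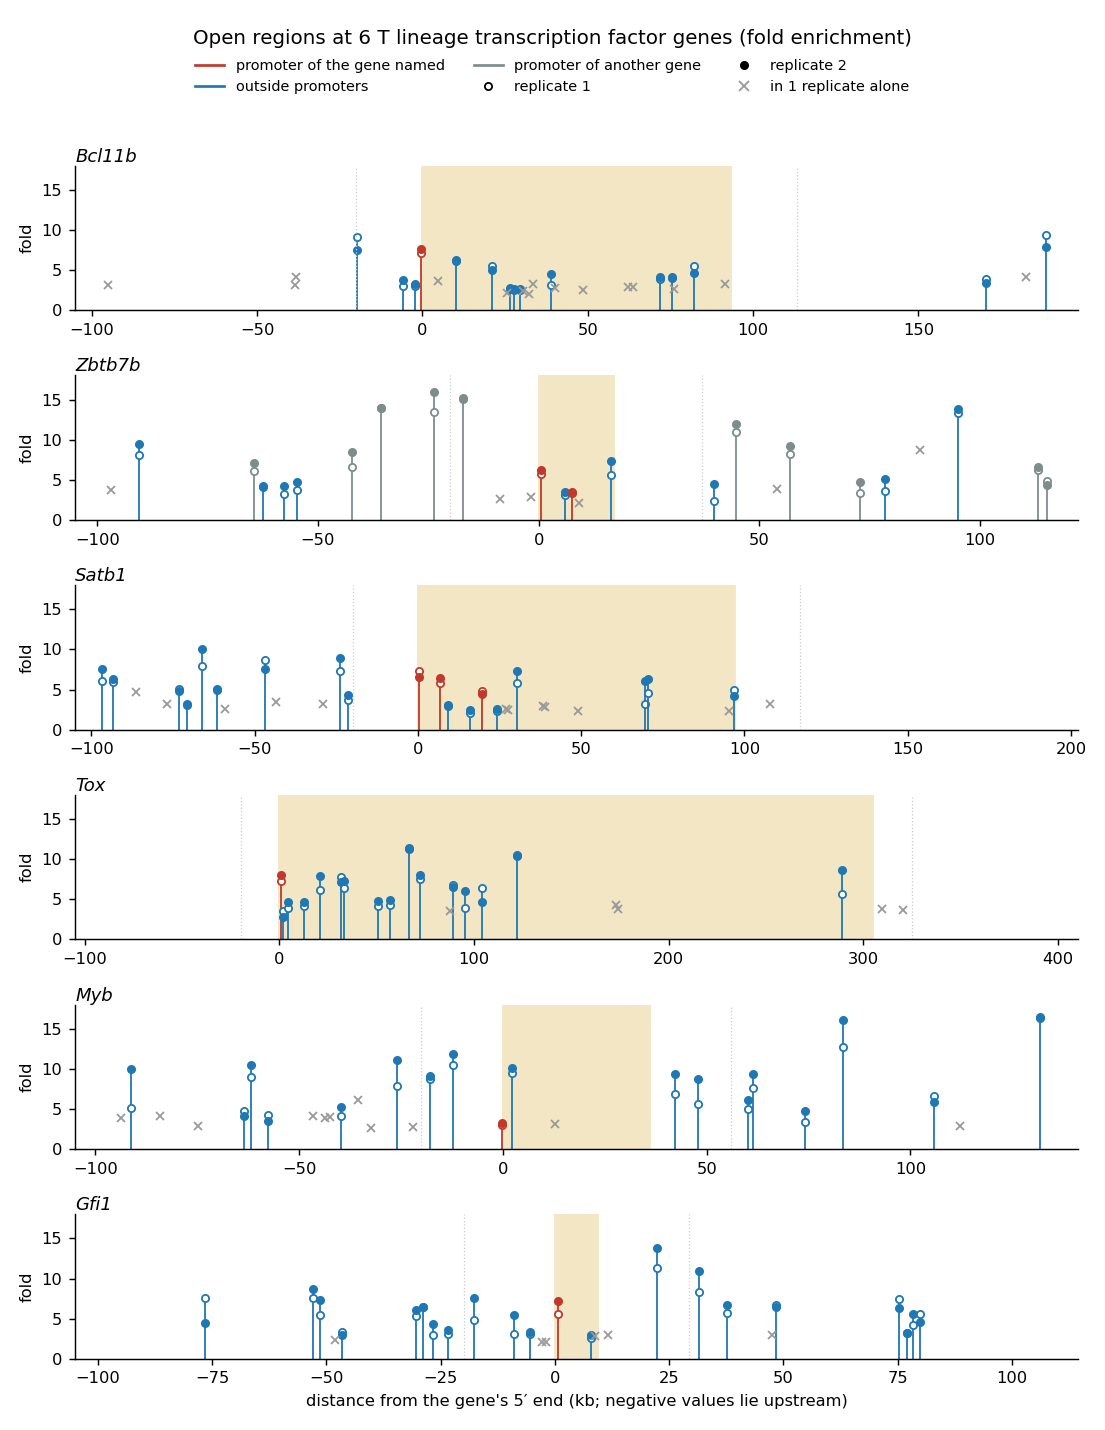
Fold enrichment (vertical axis) of each region against its distance from the gene's 5′ end (horizontal axis, kb, negative values upstream), one panel per gene; the shaded band is the gene body and dotted lines mark 20 kb on each side. The shared Tox regions lie inside the gene, the shared Satb1 regions beyond 20 kb lie upstream, and at Myb the promoter (3.04 and 3.31 fold) is below the other 17 shared regions of its window.

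Bcl11b had 15 shared regions, and Bcl11b was the gene with the nearest start site for all 15. Of these 9 lay in its introns, 4 within 20 kb upstream and 2 farther than 20 kb away, both on the 3′ side. The strongest was the most distant, at chr12:107814771-107815401, 189 kb from the 5′ end, with 9.35 and 7.87 fold on summits of 51 and 48 counts. The next, 19.6 kb upstream at chr12:108022933-108023516, had 9.15 and 7.54 fold. Both were above the promoter in replicate 1, and in replicate 2 the promoter (7.58) lay between them. Within the gene the strongest were a region in intron 1 with 6.30 and 6.16 fold, one in intron 2 with 5.46 and 5.03 fold and one in intron 3 with 5.46 and 4.65 fold. A further 7 regions of replicate 1 alone and 8 of replicate 2 alone made this the window with the lowest shares of shared regions, 68.2% of replicate 1 and 65.2% of replicate 2.

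Zbtb7b had 21 shared regions in a window of many genes. It overlapped the start sites of 13 other protein-coding genes, of which 10 had a promoter region, and 12 of the 21 regions were promoter regions, 2 of them of Zbtb7b. Zbtb7b had the nearest start site for 4 of the 21. The strongest promoter regions were those of Flad1 (15.02 and 15.14 fold), of Shc1 and Cks1b, which share a region (13.5 and 16.0 fold), of Pygo2 (14.0 and 13.9 fold) and of Adam15 (10.95 and 12 fold). The promoters of Efna4, Pbxip1, Pmvk, Efna1 and Efna3 had between 3.33 and 9.22 fold, and Dcst1, Dcst2 and Lenep had no promoter region of both replicates. A region outside promoters at chr3:89299289-89300052, 18.5 kb from Efna1, had 13.4 and 13.8 fold, above the Adam15 promoter in both replicates. Within Zbtb7b itself the strongest region outside promoters lay in exon 3 at chr3:89377873-89378942, near the gene's 3′ end, with 5.61 and 7.37 fold, followed by the region in intron 1 shown above with 3.15 and 3.50 fold. A region of replicate 2 alone at chr3:89308215-89308671 had 8.69 fold.

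Satb1 had 19 shared regions, and it had the nearest start site for all 19. Of these 10 lay in the gene body and 9 were 20 to 100 kb upstream, and the flanks of 20 kb held none. The strongest, 66.2 kb upstream at chr17:51898882-51900161, had 7.95 and 10.01 fold on summits of 58 and 125 counts. The next stood 46.9 kb upstream with 8.65 and 7.56 fold and 23.7 kb upstream with 7.29 and 8.87 fold. All 3 were above the strongest Satb1 promoter in replicate 2, and 2 of them were in replicate 1. A region 96.7 kb upstream had 6.00 and 7.55 fold, and one in intron 5 had 5.83 and 7.27 fold. No shared region lay in the 100 kb on the 3′ side.

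Tox had 16 shared regions, all in its own body of 305 kb and 14 of them in intron 1. No shared region lay in either flank. The strongest was 66.6 kb from the 5′ end at chr4:6924601-6925290 with 11.2 and 11.4 fold, and the next, 122 kb from it, had 10.4 and 10.5 fold. Both exceeded the promoter (7.30 and 8.02 fold) in both replicates, on summits of 52 to 63 counts against 69 and 89 counts at the promoter. Regions of intron 1 at 72.0 kb and 31.4 kb from the 5′ end had 7.51 and 7.97 fold and 7.82 and 7.15 fold. One region in intron 6, 289 kb from the 5′ end, had 5.64 and 8.62 fold, and the start site nearest to it was that of Nsmaf.

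Myb had 18 shared regions and 1 of them lay in the gene body. That region, at chr10:21158287-21159464 in intron 1 and 2.11 kb from the 5′ end, had 9.43 and 10.1 fold on summits of 205 and 235 counts. The promoter region beside it had summits of 65 and 76 counts over nearly the same local background, 20.7 and 22.3 counts at the promoter against 20.9 and 22.4 counts in intron 1. The intronic region was therefore the higher by fold and by count in both replicates. Upstream, the strongest regions were 12.2 kb away (10.5 and 11.9 fold) and 61.8 kb away (8.94 and 10.5 fold). Downstream, the strongest of the whole window lay in introns of the neighbouring gene Ahi1, at chr10:21028770-21029711 (16.5 and 16.4 fold) and chr10:21076930-21077901 (12.7 and 16.1 fold). The Ahi1 start site inside the window had no promoter region of both replicates. It lies downstream of the region at chr10:21028770-21029711, which is in intron 18, and so is not the 5′ end of Ahi1. Myb had the nearest start site for 11 of the 18, and those in Ahi1 were nearest Ahi1. A region of replicate 2 alone at chr10:21196483-21196856 had 6.10 fold.

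Gfi1 had 21 shared regions in a window around a body of 9.38 kb, and it had the nearest start site for 15 of them. Only 2 lay in the gene body, its promoter region and a region in intron 6 with 2.61 and 2.92 fold. The strongest was 22.4 kb from the 5′ end on the 3′ side at chr5:107703249-107704031 with 11.3 and 13.8 fold, followed by one 31.5 kb away with 8.37 and 10.9 fold. Both were above the promoter (5.63 and 7.17 fold) in both replicates. On the 5′ side 8 regions lay in introns 11, 16 and 17 of Evi5, the strongest of them 53.0 kb upstream with 7.64 and 8.69 fold. On the 3′ side 4 lay in intron 11 of Rpap2, the strongest with 7.50 and 6.32 fold, and the start site nearest to these was that of Glmn. A region 48.4 kb away had 6.71 and 6.44 fold.

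In number of shared regions the genes ranked Gfi1 and Zbtb7b (21 each), Satb1 (19), Myb (18), Tox (16) and Bcl11b (15). Counted before joining, so that neighbouring regions which the joining merges stayed separate, the single lists gave another order. In replicates 1 and 2 there were 22 and 23 regions for Bcl11b, 24 and 28 for Zbtb7b and 23 and 30 for Satb1. Tox had 18 and 19, Myb 25 and 22 and Gfi1 23 and 27. Tox was lowest in both lists, and the ranges of the other 5 overlapped or lay within 1 region of each other. The median of the 6 genes was 18.5 regions, and that of all protein-coding genes with the same window was 8, with a 95th percentile of 20. Windows differ in length, and per Mb the median was 70.2 regions for the 6 genes and 32.1 for all genes. Per Mb, Gfi1 (100) and Zbtb7b (96.7) were reached by 1.82% and 2.49% of all genes, Myb (76.3) by 8.98%, Satb1 (64.0) by 15.9%, Bcl11b (51.2) by 27.5% and Tox (31.7), in the longest gene, by 50.5%.

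Of the 110 shared regions 56 lay in the gene bodies and their flanks of 20 kb and 54 lay beyond, between 20 and 100 kb. Of the 54, 16 lay at Zbtb7b, 15 at Gfi1, 12 at Myb, 9 at Satb1, 2 at Bcl11b and 0 at Tox. The median of the 6 genes was 10.5, and that of all protein-coding genes was 5, with a 95th percentile of 14. As many were reached by 2.71% of all genes for Zbtb7b, 3.85% for Gfi1, 11.1% for Myb and 23.5% for Satb1. For Bcl11b the share was 73.5% and for Tox 100%. The order between Zbtb7b, Gfi1, Myb and Satb1 depended on the library. Counted before joining, the list of replicate 1 alone had 19 at Zbtb7b, 15 at Gfi1, 19 at Myb and 9 at Satb1. That of replicate 2 alone had 20, 17, 15 and 15 at the same genes. Both single lists had 4 at Bcl11b and 0 at Tox. The gene itself had the nearest start site for 25 of the 54, and at Zbtb7b for 0 of 16. The regions outside promoters made up 82.7% of the shared regions in the 6 windows, against 72.5% of all shared regions.

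**Figure D3:**
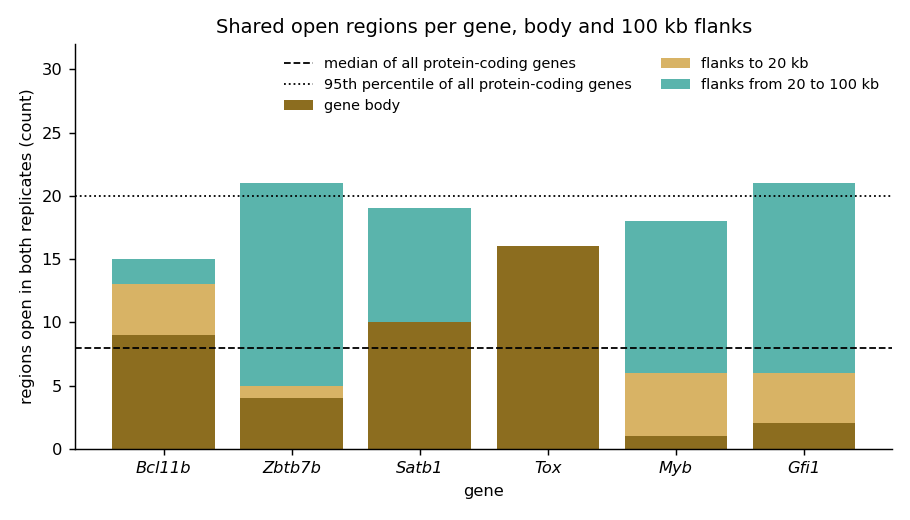
Number of shared regions (vertical axis) at each gene, stacked by place: gene body, flanks to 20 kb and flanks from 20 to 100 kb; lines mark the median (8) and the 95th percentile (20) of all protein-coding genes. Tox has all 16 regions in its body, and Zbtb7b and Gfi1 (21 each) have most in the outer flanks.

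Some of these genes border long stretches without protein-coding genes, and open regions went on past the 100 kb flank. Between Satb1 and Kcnh8 on the 5′ side lie 769 kb, which held 41 shared regions, 32 of them beyond the flank. That is 53.3 per Mb, against 4.38 per Mb over all 1634 gaps of at least 200 kb between protein-coding genes. The strongest, at chr17:52076386-52077210 within the noncoding gene Gm19585, had 14.4 and 15.8 fold, above every shared region inside the Satb1 window in both replicates. The gap on the other side of Satb1, 557 kb to Tbc1d5, held 4 shared regions (7.18 per Mb).

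On the 3′ side of Bcl11b, 421 kb to the gene 3110018I06Rik held 9 shared regions (21.4 per Mb), 7 of them beyond the flank, and the strongest (chr12:107645255-107646147) had 11.5 and 13.6 fold. Thymic enhancers of Bcl11b are known from the gene desert on this side. The next gap, 1411 kb on to Vrk1, held 44 shared regions (31.2 per Mb), with up to 15.4 and 16.1 fold at chr12:106649313-106650127. On the 5′ side of Tox, 1152 kb to Car8 held 10 shared regions (8.68 per Mb), all beyond the flank, and 232 kb to Nsmaf on the 3′ side held 0. Counted over the whole genome by nearest start site, Satb1 had 40 shared regions, a number reached by 0.0458% of protein-coding genes, Tox had 20, Bcl11b 18, Gfi1 15, Myb 11 and Zbtb7b 4. The median gene had 1 and the 95th percentile was 7. Regions in long gaps without genes enter these counts.

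The closest relatives of the 6 genes gave a mixed picture. Of 9 paralogues 7 had an open promoter, against 57.3% of all protein-coding genes. Bcl11a, a factor of B cells and progenitors, and Tox3 had none of both replicates. Over the alternatives tried the paralogue count ran from 6 to 8. It was 8 in each single list, against 58.6 and 59.3% of all genes, and 6 with −log10 q of at least 10, against 51.1%. The 6 genes had a median of 15 shared regions nearest to them in the window, and their paralogues 2. Gfi1 had 15 such regions, against 1 for Gfi1b, a factor of red cell and platelet precursors. Tox had 15, against 7 for Tox2, 0 for Tox3 and 1 for Tox4, and Myb 11, against 2 each for Mybl1 and Mybl2. Zbtb7b did not stand above its relatives, with 4 against 3 for Zbtb7a and 4 for Zbtb7c. Promoter fold was higher at Mybl1, Mybl2, Tox2, Tox4 and Zbtb7a than at their relative among the 6 genes, in both replicates. Myb had 3.04 and 3.31 fold, against 12.2 and 14.1 for Mybl1 and 14.2 and 13.3 for Mybl2. Tox had 7.30 and 8.02, against 7.71 and 8.34 for Tox2 and 14.5 and 17.0 for Tox4. Zbtb7b had 5.76 and 6.18, against 7.77 and 7.20 for Zbtb7a. The promoters of Zbtb7c and Gfi1b were the higher in replicate 1 and the lower in replicate 2. Bcl11b had 7.16 and 7.58 fold, and Bcl11a had regions near its start site in single replicates alone.

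**Figure D4:**
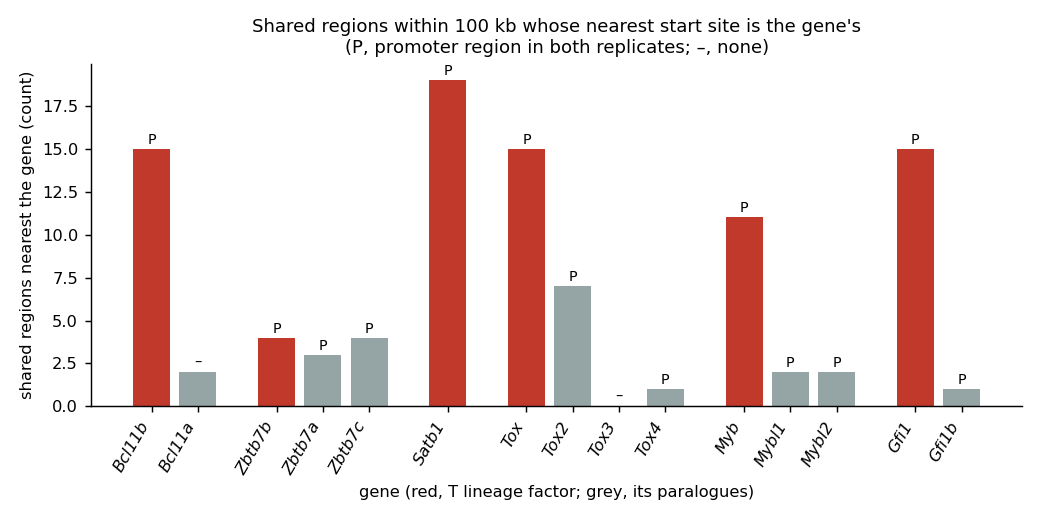
Number of shared regions within 100 kb whose nearest protein-coding start site is the gene's (vertical axis), for the 6 genes (red) and their paralogues (grey); P marks a promoter region of both replicates. Bcl11b, Tox, Myb and Gfi1 stand above their paralogues, Zbtb7b (4) does not, and Satb1 is shown without one.

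Genes that work with the 6 factors in early T cells were open as well. All 12 lineage partners (Tcf7, Lef1, Gata3, Runx1, Runx3, Cbfb, Tcf3, Tcf12, Ets1, Ikzf1, Zbtb17 and Notch1) had an open promoter, with a median of 20 shared regions in the window and up to 29 at Ets1. Their promoter folds ran from 4.07 and 4.57 at Ikzf1 to 12.3 and 12.3 at Runx3 and 11.7 and 12.6 at Tcf3. With the 5′ end alone 9 of the 12 partners had an open promoter, against 53.9% of all genes. With a reciprocal overlap of 50% it was 11, against 55.3%, and the other settings kept all 12. Of 12 genes of blood progenitors 6 had an open promoter: Hhex, Lmo2, Lyl1, Gata2, Tal1 and Kit, with between 2.46 and 6.26 fold. Spi1, Bcl11a, Erg, Mef2c, Meis1 and Hoxa9 had none of both replicates. The median progenitor gene had 8.5 shared regions in its window, close to the 8 of all protein-coding genes. The share with an open promoter was 50% of progenitor genes and 57.3% of all genes, and which share was higher depended on the definition. With promoters within 2.5 kb 10 of the 12 progenitor genes were open, against 60.1% of all genes, with start sites of all transcripts 9 of 12, against 59.1%, in the list of replicate 1 alone 8 of 12, against 58.6%, and with −log10 q of at least 10 it was 1 of 12, against 51.1%.

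Consensus sequences were counted in the 91 shared regions outside promoters of the 6 windows and in all 31955 such regions of the genome. AP-1 matches were in 26.4% of the 200 bp windows, against 28.6% over the genome, and NFAT matches in 15.4%, against 16.5%. STAT matches were in 15.4%, against 12.7%, RUNX in 11%, against 9.72%, GATA in 11%, against 11.8%, and E-boxes in 9.89%, against 12.3%. TCF/LEF, CTCF and NF-kB matches were each in 5 of the 91 regions (5.49%), against 4.32%, 9.16% and 4.34% over the genome. MYB matches were in 14.3% (13 regions), against 25.4%, but the share in the 6 windows rested on the library that set the summit, being 15.4% at the summits of replicate 2 alone and 24.2% at those of replicate 1 alone. KLF/SP was in 6.59%, against 8.33%, GFI1 in 3.30%, against 2.66%, ETS in 2.20%, against 2.40%, YY1 in 2.20%, against 1.04%, and NRF1 in 0 of 91, against 0.541%. With 91 regions that share loci, these differences were not tested.

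The replicates were compared within the 6 windows and over all regions. Of replicate 1's regions 84.6% were shared (95% Wilson interval 77.4 to 89.8%), against 86.5% of all its regions, and of replicate 2's 75.9% (68.3 to 82.1%), against 73.2%. A further 20 regions were in replicate 1 alone and 35 in replicate 2 alone. Replicate 2 had the higher fold in 80 of the 110 shared regions (72.7%), against 71.3% of all shared regions, and the median ratio of replicate 2 over replicate 1 was 1.11 in the windows and 1.11 overall. The highest ratio was at a region 91.3 kb upstream of Myb, with 5.13 fold in replicate 1 and 10 in replicate 2 (19 and 52 counts), and the lowest at one 76.6 kb upstream of Gfi1, with 7.53 and 4.52 fold (29 and 19 counts). This ratio ran from 0.60 to 1.95.

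**Figure D5:**
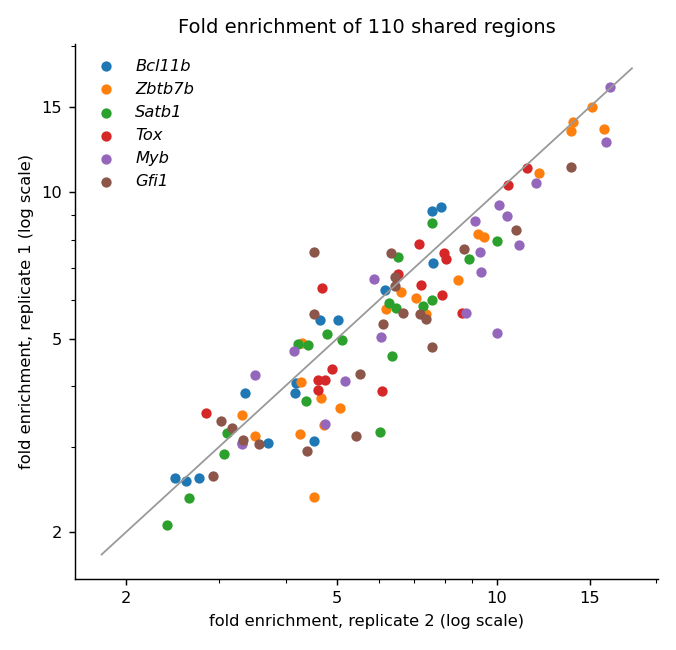
Fold enrichment of the 110 shared regions in replicate 1 (vertical axis) against replicate 2 (horizontal axis), both on log scales and coloured by gene; the line marks equal values. More points lie on replicate 2's side of the line (80 of 110).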

How the data were processed

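ATAC-seq region lists of 2 Th2 libraries, 1 list per library, were used as deposited. The authors made each list from the alignment of its own library on mm10, per the file headers, and pooled no reads. Not given in the sources used here are the aligner, the peak caller, their versions and any shift of reads for the transposase. The words ASTARR and insert and a number of hours stand in the region names, none of them explained by a source used here, so the libraries may hold something other than plain ATAC-seq fragments and may stand for 1 time point. The fold enrichment of a region is the authors' deposited ratio, and its −log10 p and −log10 q are the authors' deposited values (lowest −log10 q 1.00 and 1.01). The deposited score was not used.

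Regions of both lists on 21 main chromosomes were joined where they overlapped by at least 1 bp, and a joined region took each replicate's strongest region. Genes and start sites came from GENCODE M21, and sequences from GRCm38. A promoter region was centred within 1 kb of a protein-coding start site, and distal regions lay beyond 20 kb of the gene body. Whole-number summit counts were recovered from fold and p under a Poisson model with a pseudocount of 1, to within 0.001 of −log10 p, for 51458 of 51458 and 60783 of 60784 regions. The sources do not state what 1 count stands for, and counts and intervals cover counting error only. Python 3.11.15, numpy 2.4.6, pandas 2.3.3, scipy 1.17.1, pysam 0.24.0, samtools 1.23.1 and matplotlib 3.10.9 were used, and joining and recovery were checked on simulated data.

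The members, gene lists and consensus sequences were chosen with earlier results of these data known. With 1 group no test was made. Some genes of the lists are not reported here. Named were the members, paralogues, lineage partners and progenitor genes, and per gene the promoter regions, the 5 strongest other regions, the strongest distal region on each side, regions of 1 replicate alone with a fold of at least 6, and genes with a promoter region in a window. The genes Dcst1, Dcst2, Lenep, Ahi1, Evi5, Rpap2, Glmn, Nsmaf and the gap neighbours were named after their values were seen. Alternatives covered the authors' threshold, overlap, single replicates, promoter definition, flank length, nearest gene, measure of strength and motif window.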

Additional observations from a re-analysis of the deposited data

How the results depend on the processing

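All 6 genes had an open promoter under each alternative tried except 1: with a region required to cover a start site base, 5 did, since the Bcl11b region covers none. Under that rule Zbtb7b was open through its weaker region inside the gene alone, and the share of all genes was not computed. With −log10 q of at least 10, shared regions in the windows came to 71 in place of 110 (median of all genes 5 in place of 8), those in the gaps beyond the flanks to 26 in place of 53, open progenitor promoters to 1 in place of 6, open promoters of all genes to 51.1%, the share of replicate 1's regions that were shared to 97.3%, and the median share of open promoters at least as strong as those of the 6 genes to 89.7% in place of 80.2%. With a reciprocal overlap of 50%, 70.4% and 63.8% of the regions of replicates 1 and 2 were shared, 55.3% of all genes had an open promoter, and the median share as strong was 82.4%. The single lists gave 58.6 to 59.3% of genes with an open promoter and a median share as strong of 76.6 to 78.4%. Promoters within 2.5 kb gave 10 open progenitor genes and 60.1% of all genes, and start sites of all transcripts 9 progenitor genes and 59.1%. The 5′ end alone gave 53.9% of all genes. For shared regions, progenitor genes thus stood below all genes under the 1 kb definition and above them with 2.5 kb and with all transcripts. In the list of replicate 1 alone they stood above all genes under the 1 kb definition too, with 8 of 12 against 58.6%. Flanks of 50 and 200 kb gave 23 and 102 regions beyond 20 kb in place of 54. Over the whole windows they gave 79 and 158 regions in place of 110, with medians of all genes of 4 and 14 in place of 8. Gene bodies alone gave 42 regions, with a median of all genes of 1, and regions nearest the gene itself 25 beyond 20 kb.

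The strength of the promoters depended most on the measure. By −log10 p the median share as strong was 51.0%, and 3 genes had a stronger region outside promoters in place of 6. How many of all genes have such a region by −log10 p was not counted, so the 3 cannot be placed. By summit count over the genome-wide background, a measure chosen after seeing the data, the share was 31.2% and 1 gene did, so the place of these promoters among all open promoters turned from the weaker to the stronger side, and the count from above to below its share over all genes. The mean fold of joined regions gave a median promoter fold of 6.05 in place of 6.67 and a share of 83.7%. The cause was not tested. Of the other 204 values for single genes and consensus sequences, 132 stayed within their limits and 72 moved. The limit was a set ratio for counts and otherwise a span taken from the difference between the single lists. Fold values of a single list mostly fall inside that span by construction, so this tally does not measure stability. Low summit counts limit the weak regions. No paired analysis was possible because there is 1 group.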

Other observations

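The region in intron 1 of Zbtb7b held an inverted repeat in its summit window. A stretch of 17 bp recurred on the opposite strand within the 200 bp, and 13 of 44058 shared regions of the genome (0.0295%) had an arm at least that long. The E-box printed for that region lies in the loop between the arms. RefSeq promoter windows were matched for 5 of the 6 genes, all except Tox. The Myb window held 40 CpG, a number reached by 3.91% of 32851 RefSeq promoters, whose median was 7. Satb1 varied as much within the gene, with 45 CpG in 1 window (reached by 1.93%) and 8, 3, 13 and 7 in the others, of which the most 5′ held 8. Gfi1 windows held 16 and 10, that of Bcl11b 9, and those of Zbtb7b 8 and 7. Under the 1 kb definition Myb thus combined a CpG-rich promoter with the lowest promoter fold of the set, at 3.04 and 3.31. Within 2.5 kb its region in intron 1, with 9.43 and 10.1 fold, would count as a promoter region too.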
